A study of Mus musculus with 8 samples.

Results

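The genes described here encode the proteins of the cytosolic ribosome, measured by RNA-seq of whole mouse retina in wild type (WT) and rd10 animals. Members were the protein-coding genes whose symbols follow the Rpl and Rps pattern of large and small ribosomal subunit proteins, with Rplp0, Rplp1, Rplp2 and Rpsa, and with at least 10 counts in at least 2 libraries. Of 57010 gene identifiers in the table, 83 protein-coding symbols followed the pattern and 80 became members, 48 of the large and 32 of the small subunit. The other 3 were Rpl10l, which had no count in any library, Rpl3l with 0 to 3 counts a library and Rpl39l with 0 to 5. A further 6 symbols of the pattern are annotated as pseudogenes and were left out. Among the 80, 77 encode the standard set and 3 (Rpl7l1, Rpl22l1 and Rps27l) are paralogues. Rpl36al, the paralogue of Rpl36a, has a symbol outside the pattern and was not used here.

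The study followed the rd10 mouse, which is homozygous for an R560C change in Pde6b, the rod phosphodiesterase subunit, and loses its rods in the weeks after birth. The 8 libraries comprised WT retina at postnatal day 15 (P15) and rd10 retina at P15, P18 and P21, with 2 libraries in each of the 4 groups. Each library was made from poly(A) RNA of 1 whole retina. The labels do not say whether retinas of a group came from separate animals, so that p-values measure the spread between these libraries. For the figure that holds its rd10 heatmap, the paper gives more animals a group and time point than there are libraries here. WT retina was sequenced at P15 only, so that age and genotype change together in the comparisons of rd10 P18 and rd10 P21 with WT P15.

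A ribosome is built from ribosomal RNA and a copy of nearly each of these proteins, and cells tend to make the proteins in matched amounts. Their genes have introns, their mRNAs are short and abundant, and many of these start with a run of pyrimidines (a terminal oligopyrimidine or TOP start) through which mTORC1 signalling controls their translation. Each gene has also left processed pseudogenes across the genome, intronless copies of the mRNA that can be nearly identical to it, so that a sequencing read of such an mRNA can match several places.

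Total counts lay between 28076947 and 33724562 a library, and 20457 genes passed the filter on low counts and were tested. The sexes differed between groups. Xist, the X-inactivation RNA of females, reached 1134 and 853 CPM (TMM-scaled counts relative to library size) in the WT libraries, 2426 at rd10 P18 replicate 2 and 2798 at rd10 P21 replicate 2, against 1.31 to 3.14 in the other four libraries, where 4 Y-linked genes summed to 176 to 213 CPM. Thus both WT libraries carried female and both rd10 P15 libraries male transcripts, and sex and genotype cannot be told apart at P15. Markers of other cells moved with the groups as well. The summed level of 12 rod markers was 58561 and 47729 CPM in WT, 35646 and 38143 at rd10 P15, 31157 and 30948 at rd10 P18, and 22563 and 29497 at rd10 P21. Of 10 genes of reactive Muller glia, 9 were called higher in rd10 P18 against WT (summed levels 2184 and 2071 against 383 and 402 CPM), and of 13 microglia and macrophage genes 4 were (294 and 305 against 76.2 and 89.6 CPM). The 8 genes of retinal pigment epithelium summed to 233 and 271 CPM in rd10 P15 and to 25.5 to 166 in the other libraries. The part of these shifts in the results on ribosomal protein genes was not tested. In whole retina, fewer cells of a type and less RNA per cell cannot be told apart.

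As a family, ribosomal protein genes took a small and variable share of the reads. The 80 members held 1.04% and 1.10% of all counts in the WT P15 libraries, 1.22% and 1.23% at rd10 P15, 1.87% and 1.16% at rd10 P18, and 1.01% and 0.924% at rd10 P21. The group means were 1.07% ± 0.0400, 1.22% ± 0.00851, 1.52% ± 0.499 and 0.965% ± 0.0589 (SD, n = 2 each). The rd10 P15 libraries lay above both WT libraries and the rd10 P21 libraries below them, while in rd10 P18 replicate 1 lay far above every other library and replicate 2 just above WT. An exact permutation test of 2 libraries against 2 has a smallest two-sided p of 0.333, so no such test was run on these shares and they are given as a description.

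**Figure D1:**
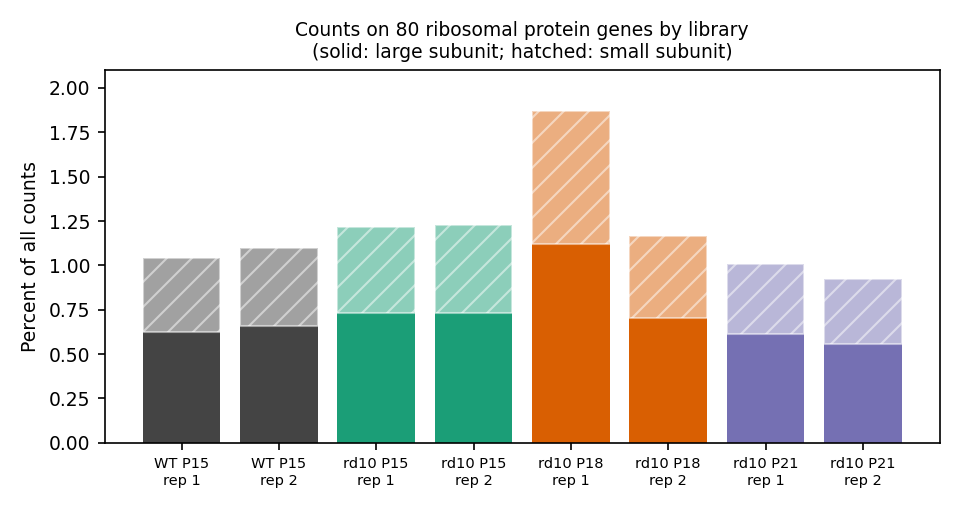
Percent of all counts on the 80 ribosomal protein genes in each of the 8 libraries, large subunit genes in solid and small subunit genes in hatched colour. The bar of rd10 P18 replicate 1 reaches 1.87% and the others lie between 0.924% and 1.23%.

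Levels of the members, set per kilobase of the principal transcript and averaged over the 8 libraries, spanned 26.7-fold among the 77 standard genes, with a median of 141 CPM per kilobase. Rplp1, an acidic protein of the ribosomal stalk, was highest at 566 CPM per kilobase, followed by Rps15 at 477 and Rps29 at 438, both proteins of the small subunit. At the other end were Rpl21 at 21.2 CPM per kilobase, Rps20 at 27.8 and Rps15a at 27.9. The principal transcript of Rps15a is 5179 bases and that of Rps20 is 3706 bases long, and Rpl21 has 62 near-identical copies that took 79.6% to 92.1% of the counts on the gene and its copies together. With the union of exons as the length, Rpl21 stood at 11.6, Rps20 at 25.2 and Rps29 at 247 CPM per kilobase.

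Most members kept a steady place relative to the family median. This median was 7.64 log2 CPM in rd10 P18 replicate 1 and 6.64 to 7.12 in the other libraries. The spread of other genes was not set beside that of the members. After the family median of each library was taken away, the SD of a member's log2 CPM over the 8 libraries had a median of 0.121, was under 0.2 for 66 members and over 0.3 for 7. Rpl8 was the most even at 0.0482, and the 7 were Rpl29 at 2.77, Rpl7a at 1.11, Rps27 at 0.650, Rpl41 at 0.480, Rpl21 at 0.419, Rpl17 at 0.397 and Rps10 at 0.390.

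The comparison of rd10 P15 with WT P15 sets the genotypes side by side at the same age. Genes were tested with the quasi-likelihood model of edgeR, and called where the Benjamini-Hochberg p over all genes was below 0.05 with more than a 2-fold difference either way. At P15, 0.23% of all genes tested were called (47 genes, against 431 by DESeq2 and 6 to 246 by edgeR with each library left out in turn), and of the members only Rpl29, a protein of the large subunit surface, which was 68.2-fold higher in rd10. The median log2 fold change of the 80 members was 0.16, against -0.01 over all genes, and 66 members lay above 0. In 49 members both rd10 P15 libraries were higher than both WT libraries, where 24.8% of all genes were. After Rpl29, the most positive changes were those of Rplp0, the scaffold of the stalk (log2 fold change 0.59), and Rps27l (0.55), and the most negative those of Rpl21 (-0.56), Rpl7a (-0.40) and Rps27 (-0.18). None of these passed the test, and the lowest adjusted p among members other than Rpl29 was 0.240 by edgeR, for Rplp0. An unadjusted p under 0.05 was reached by 2 members (2.5%), against 12.3% of all genes. This count depended on libraries outside the comparison, since all 8 libraries share one estimate of the spread. It was 20 members in a fit to the 4 libraries compared, in which 206 genes were called in all in place of 47. The share of all genes with such a p was not counted in that fit.

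In rd10 P18 against WT P15, where reactive glial genes were at their highest, 1.48% of all genes were called and Rpl29 was again the sole member, 101-fold higher. The members had a median log2 fold change of 0.36 (0.01 over all genes), with 79 above 0. Both rd10 P18 libraries exceeded both WT libraries in 37 members, against 24.1% of all genes. Rps27l (0.91) and Rplp0 (0.73) had the largest positive changes after Rpl29, with Rps27a, a ubiquitin fusion protein of the small subunit, close behind at 0.72. The smallest were those of Rps27 (-0.22), Rpl21 (0.02) and Rpl22 (0.04). Rplp0 had an adjusted p of 0.0941 by edgeR and Rps27l one of 0.124, so neither was called. The median rested on rd10 P18 replicate 1. Without it the members' median was 0.04, Rpl29 stayed higher and Rps27 was lower. In replicate 2 the near-identical copies of Rps27 held 69.8% of the counts on gene and copies, against 9.14% to 24.3% in the other libraries. Gene and copies together had 86.9 CPM there and 112 in both WT libraries. The Rps27 values without replicate 1 in other comparisons rest on the same library. Without replicate 2 the median was 0.65.

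In rd10 P21 against WT P15 the family lay lower. Here 0.386% of all genes were called, and Rpl29, still 43.8-fold higher, was the only member. The other members mostly went the opposite way, with a median of -0.27 over all 80 (0.00 over all genes) and 72 below 0. In 60 members both rd10 P21 libraries were lower than both WT libraries, where 24.2% of all genes were. The most negative changes were those of Rpl21 (-0.88), Rpl30 (-0.68) and Rps18 (-0.60), proteins of the large and, for Rps18, the small subunit, and the largest positive values after Rpl29 those of Rps10 (0.49) and Rpl7a (0.48). The lowest adjusted p after Rpl29 was 0.260 by edgeR, for Rps18.

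Among the rd10 ages no member was called by edgeR. Between P18 and P15, 0.591% of all genes were called. The members' median was 0.27 with 75 above 0, yet in only 9 members were both P18 libraries higher than both P15 libraries, where 21.9% of all genes were, and without rd10 P18 replicate 1 the median turned to -0.11 and Rps27 was called lower. Rpl7a (1.00), Rps27a (0.62) and Rpl21 (0.59) had the largest positive changes and Rpl22 (-0.20), Rpl11 (-0.07) and Rps27 (-0.04) the most negative. Summed with their near-identical copies, Rpl7a had 0.13 and Rpl21 0.08 in this comparison. An unadjusted p under 0.05 was reached by 4 members (5.0%) and by 12.9% of all genes, and DESeq2 also called 0 members. The count of members with such a p depended on both rd10 P18 libraries. Without replicate 2 the members' median was 0.54.

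Between P21 and P15, both from rd10 retina and with 0.401% of all genes called, the median was -0.39 with 78 members below 0. In 73 members both P21 libraries were lower than both P15 libraries, against 25.5% of all genes. Rps14 (-0.78) and Rps18 (-0.73), both of the small subunit, had the most negative changes, and Rps14 the lowest adjusted p, 0.137 by edgeR. Rpl7a (0.88) and Rps10 (0.06) were the 2 members above 0, and Rpl10 (-0.15) was the next highest. An unadjusted p under 0.05 was reached by 24 members (30.0%), against 12.8% of all genes, and DESeq2 called 0 members here too. The count of members with such a p depended on the rd10 P18 libraries, although these enter this comparison only through the shared spread and scaling. It was 65 in a fit to the 4 libraries compared, in which 182 genes were called in all. The share of all genes with such a p was not counted in that fit. Leaving out 1 of the P15 or P21 libraries lowered the count. The median lay between -0.45 and -0.33 when each library was left out in turn.

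Between P21 and P18 the median was -0.65, with all 80 members below 0. In 75 members both P21 libraries were lower than both P18 libraries, against 22% of all genes, and 68 members had an unadjusted p under 0.05 (85.0%, against 10.9% of all genes). Even so, 0.0196% of all genes were called and no member was, the lowest adjusted p being 0.212 by edgeR, for Rpl29 (-1.20). Rpl30 (-1.02) and Rpl21 (-0.90) followed, and Rpl7a (-0.12), Rps10 (-0.20) and Rps27 (-0.35) lay closest to 0. DESeq2 called 2 members here, Rpl29 (adjusted p = 1.5e-05) and Rpl30 (adjusted p = 0.0269). Without rd10 P18 replicate 1 the median was -0.29, closer to 0 than that of P21 against P15, and Rps27 was then higher at P21. Without replicate 2 the median was -0.95. The comparisons with WT share the WT libraries and those among the ages share the rd10 libraries, so their medians are not independent of each other.

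Both subunits had similar medians in all 6 comparisons. Against WT the small subunit genes had 0.19 at P15, 0.38 at P18 and -0.29 at P21, and the large subunit genes 0.16, 0.36 and -0.25. From P15 to P18 the small subunit genes had 0.23 and the large subunit genes 0.29, the widest gap. From P15 to P21 they had -0.40 and -0.39, and from P18 to P21 -0.67 and -0.65. In share of counts, large subunit genes took 0.559% (rd10 P21 replicate 2) to 1.12% (rd10 P18 replicate 1) and small subunit genes 0.365% to 0.749%, lowest and highest in the same libraries.

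Single members with low adjusted p or extreme changes were followed across the libraries. They were picked for these values and do not stand for the family. Rps18, a protein of the small subunit head, had 115 and 138 CPM in WT, 145 and 134 at rd10 P15, 178 and 122 at rd10 P18, and 80.4 and 86.8 at rd10 P21. Both P21 libraries were below all others, while WT, P15 and P18 overlapped. Rps14, which lies on the small subunit platform, had 206 and 190 CPM in WT, 241 and 252 at rd10 P15, 283 and 200.1 at rd10 P18, and 131 and 156 at rd10 P21. Here, too, both P21 libraries were lowest, and both rd10 P15 libraries were above both WT libraries.

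Rpl30, a large subunit protein, had 86.8 and 87.8 CPM in WT, 91.4 and 69.0 at rd10 P15, 138 and 82.9 at rd10 P18, and 59.4 and 49.5 at rd10 P21, where it was lowest. Rps27a, which is made fused to ubiquitin, had 77.6 and 75.6 CPM in WT, 77.3 and 86.6 at rd10 P15, 160.2 and 92.1 at rd10 P18, and 71.5 and 66.0 at rd10 P21. Both P18 libraries of Rps27a were above all others. Rps10 differed from this course. It had 57.4 and 56.8 CPM in WT, 95.1 and 58.1 at rd10 P15, 93.9 and 90.4 at rd10 P18, and 87.7 and 72.4 at rd10 P21, so that every rd10 library was above both WT libraries. Its 2 near-identical copies held 25.7% to 36.7% of the counts on gene and copies.

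**Figure D2:**
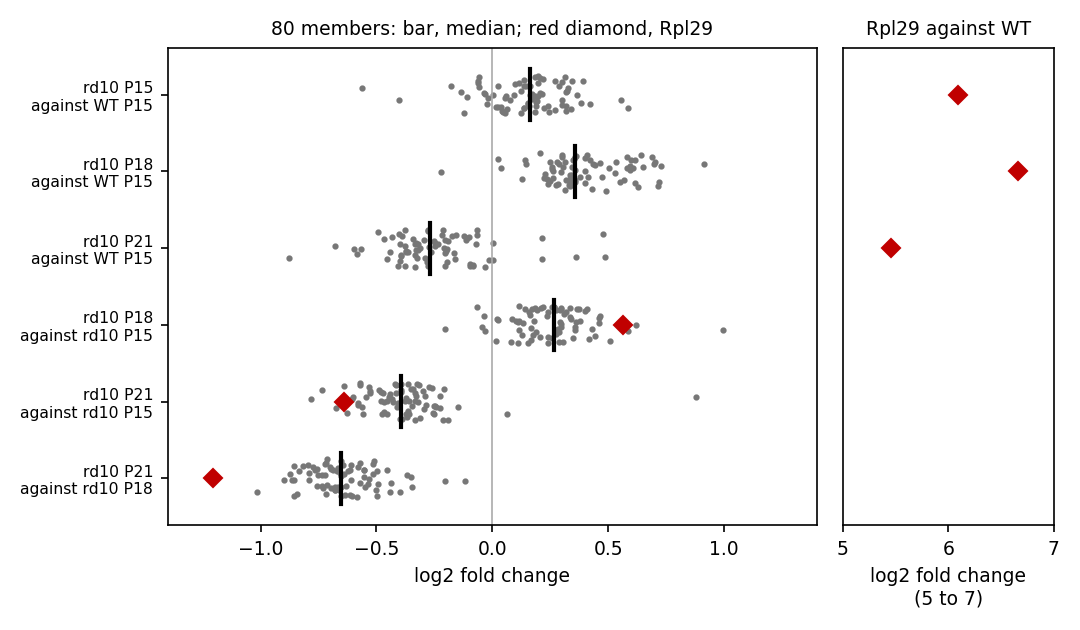
Log2 fold changes of the 80 members in the 6 comparisons, 1 grey point a gene, the black bar the median and the red diamond Rpl29, whose 3 values against WT (6.09, 6.66 and 5.45) stand on an axis of their own at the right. The medians are 0.16, 0.36, -0.27, 0.27, -0.39 and -0.65 from top to bottom.

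Because the 2 rd10 P18 libraries stood apart from each other, they were compared directly. They also differed in sex, with Xist at 1.31 CPM in replicate 1 and 2426 in replicate 2, as did the 2 rd10 P21 libraries. The part of sex in the ratios below was not tested. In 78 of the 80 members rd10 P18 replicate 1 held the highest value of all 8 libraries (the others were Rpl22 and Rps10). All 79 members other than Rpl29 were higher in replicate 1 than in replicate 2, with a median log2 ratio of 0.63. In the other pairs of libraries the median was -0.01 (WT P15), -0.05 (rd10 P15) and 0.10 (rd10 P21). The ratio moved with transcript length. Among the 19 members of up to 600 bases its median was 0.78, and among 19 members over 1200 bases it was 0.51.

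Other short genes showed the same shift between these 2 libraries. The 186 other protein-coding genes with transcripts of up to 600 bases had a median log2 ratio of 0.55, and those of over 600 and up to 900 bases had 0.49. Genes of over 2000 and up to 4000 bases had 0.03 and those of over 4000 bases -0.36. Over all 15257 other protein-coding genes Spearman's rho between ratio and length was -0.50, as a description across genes of 1 pair of libraries. The library protocol selected fragments of 370 to 420 bp, close to the whole length of the shortest members, and the part of fragment or RNA length in the family's values at P18 was not tested. In the comparisons that include P18, the 876 other protein-coding genes of up to 1000 bases had medians of 0.27 (against WT), 0.24 (P18 against P15) and -0.42 (P21 against P18), beside 0.36, 0.27 and -0.65 for the members. In those without P18 they had 0.03 (P15 against WT), -0.10 (P21 against WT) and -0.11 (P21 against P15), beside 0.16, -0.27 and -0.39.

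**Figure D3:**
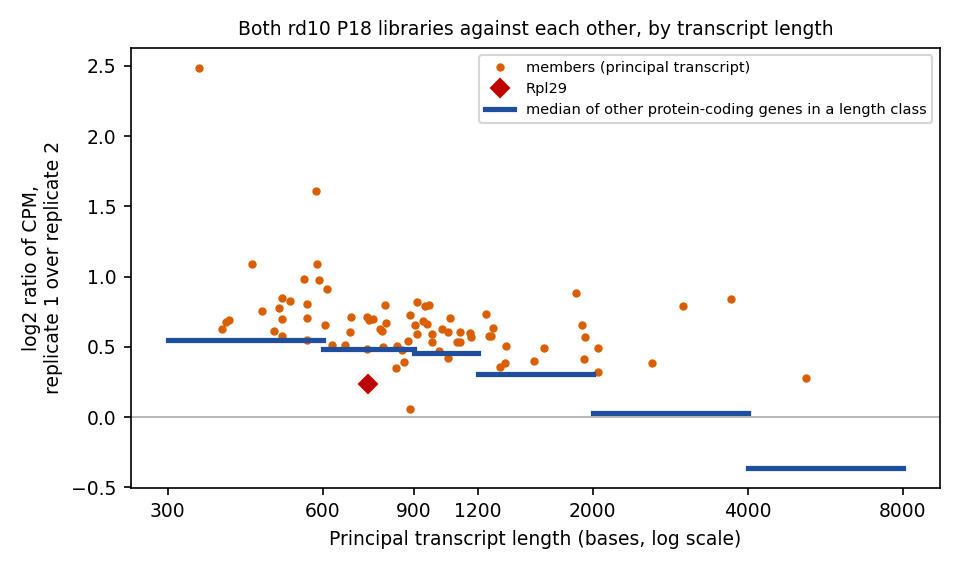
Log2 ratio of CPM in rd10 P18 replicate 1 over replicate 2 against the length of the principal transcript on a log scale, for the members (points, Rpl29 as the red diamond) and as the median of all other protein-coding genes in 6 length classes (blue lines, from 0.55 in the shortest to -0.36 in the longest). All points lie above 0.

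By role, the proteins of the stalk, which recruits the elongation factors, did not move alike. Rplp0 stood at 202 and 198 CPM in WT, 294 and 305 at rd10 P15, 388 and 273 at rd10 P18, and 253 and 210 at rd10 P21. All 6 rd10 libraries were above both WT libraries. Its partners Rplp1 and Rplp2 did not share this at P15. Rplp1 had 285 and 271 CPM in WT and 275 and 282 at rd10 P15 (log2 fold change 0.00), and Rplp2 had 105 and 106 in WT and 110 and 125 at rd10 P15 (0.16). Rplp0 was not called in any comparison, so a difference within the stalk is a description.

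Rps6, the small subunit protein phosphorylated downstream of mTORC1, had a log2 fold change of -0.02 at P15, below the family's median of 0.16, and of -0.65 from P18 to P21, equal to it. It held 273 and 275 CPM in WT, 279 and 260 at rd10 P15, 392 and 270 at rd10 P18, and 223 and 198 at rd10 P21. Rpsa, which is also known as a laminin receptor, had 299.9 and 281 CPM in WT, 296 and 300.3 at rd10 P15, 441 and 296 at rd10 P18, and 240.3 and 220.4 at rd10 P21. For both genes the WT and rd10 P15 libraries overlapped and both rd10 P21 libraries were lowest. Rpl5 and Rpl11, which bind Mdm2 when ribosome assembly fails, had log2 fold changes at P15 of 0.20 and 0.34, and Rps19, a gene mutated in Diamond-Blackfan anaemia, one of 0.06.

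Of the X-linked members, Rps4x went from 198 and 196 CPM in WT to 226 and 249 at rd10 P15, 355 and 245 at rd10 P18, and 198 and 163 at rd10 P21. Rpl10 went from 38.8 and 49.9 CPM in WT to 60.05 and 54.1 at rd10 P15, 84.6 and 60.8 at rd10 P18, and 57.8 and 45.1 at rd10 P21. Both genes were higher in both rd10 P15 libraries than in both WT libraries, with log2 fold changes of 0.27 and 0.36. Rpl36a (0.09) and Rpl39 (0.17) changed less. None was called, and these 2 groups also differ in sex.

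Of the paralogues, Rps27l stood at 20.8 CPM per kilobase against 250 for Rps27 and Rpl7l1 at 20.8 against 234 for Rpl7, while Rpl22l1 (57.2) and Rpl22 (52.8) lay close on this scale but not per kilobase of the union of exons (15.9 and 37.2). Rps27l, a p53-inducible relative of Rps27, had 6.99 and 7.77 CPM in WT, 9.87 and 11.8 at rd10 P15, 16.7 and 11.2 at rd10 P18, and 9.45 and 9.51 at rd10 P21. All 6 rd10 libraries lay above both WT libraries, and Rps27l had no near-identical copy in the annotation. Rpl22l1 had 31.4 and 35.4 CPM in WT and 25.2 and 19.3 at rd10 P21, and Rpl22 had 104 and 113 and then 89.0 and 83.4. For Rpl7l1, 3 near-identical copies held 84.3% to 89.4% of the counts on gene and copies.

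Rpl29 differed from the rest of the family. The gene lies on chromosome 9 (chr9:106429454-106431568, plus strand, GRCm38) and has 4 exons in its principal transcript of 733 bases. Its counts were 32 and 21 in WT, 1984 and 1794 at rd10 P15, 3389 and 2729 at rd10 P18, and 1342 and 1227 at rd10 P21. In CPM these were 1.18 and 0.680, 63.1 and 63.2, 101 and 86.0, and 38.3 and 42.9. In both WT libraries Rpl29 was the lowest of the 80 members in CPM, which is not corrected for length, at 0.994% and 0.531% of the family median, and in the rd10 libraries it stood at 37.9% to 67.4% of that median. Every rd10 library, male or female, lay far above both WT libraries. The log2 fold changes against WT were 6.09 (SE 0.262, edgeR adjusted p = 0.000132) at P15, 6.66 (SE 0.267, adjusted p = 7.38e-05) at P18 and 5.45 (SE 0.257, adjusted p = 0.00014) at P21.

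Within rd10 retina Rpl29 kept to the family's direction, with a log2 fold change of 0.57 from P15 to P18 and of -1.20 from P18 to P21. The edgeR adjusted p of these were 0.292 and 0.212. Across the 8 libraries, the genes most like Rpl29 by Pearson's r of log2 CPM were Ckap4 (0.986), Col5a2 (0.982), Scfd2 (0.978), Pdzrn3 (0.977) and Ttll12 (0.976), and the most alike member was Rps27l (0.794). These values are over 8 libraries that share the step between WT and rd10. No direct neighbour of Rpl29 moved with it. Of the nearest genes tested, Poc1a, Dusp7 and 4930500F10Rik on one side and Acy1, Abhd14a and Abhd14b on the other, none was called against WT, and the log2 fold changes at P15 lay between -0.59 and 0.10.

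The transcript of Rpl29 has 32 near-identical copies (at least 95% identity over at least 150 bases) in the annotation, of which 28 had counts. The 5 with most counts are Gm6344 on chromosome 13, Gm10709 on chromosome 9, Gm13841 on chromosome 5, Gm8210 on chromosome 1 and Gm14036 on chromosome 2. In the part aligned, they differ from the 483 bases of the Rpl29 coding sequence by 3 or 4 substitutions and no gap. All 5 share C300T and T423C, counted from 1 at the first base of the start codon, with the base of Rpl29 given before the base of the copy. These windows of 21 bases show, 5′ to 3′, how little separates a read of the gene from a read of a copy, with the differing base in capitals and the surrounding sequence from GENCODE M21 transcripts:
Rpl29 around 300: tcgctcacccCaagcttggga
the 5 copies around 300: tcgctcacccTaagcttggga
Rpl29 around 423: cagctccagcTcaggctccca
the 5 copies around 423: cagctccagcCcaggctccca
Rpl29 around 454: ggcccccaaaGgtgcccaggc
Gm6344 around 454: ggcccccaaaAgtgcccaggc

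The copies carried counts in all libraries, WT included. Gm6344 had 1133 and 1278 counts in WT, 1659 and 1585 at rd10 P15, 2216 and 1470 at rd10 P18, and 1361 and 1090 at rd10 P21. Summed, the 32 copies reached 90.9 and 87.3 CPM in WT, 103 and 115 at rd10 P15, 128 and 95.8 at rd10 P18, and 79.4 and 73.8 at rd10 P21. Their WT and rd10 levels thus stood far closer than those of Rpl29, and the WT libraries lay above both rd10 P21 libraries. Rpl29 itself took 1.28% and 0.772% of the counts on gene and copies in WT, and 32.5% to 47.3% in the rd10 libraries. Rpl29-ps2, a pseudogene on chromosome 13, went the other way, with 48 and 70 counts in WT and 3 to 25 in the rd10 libraries, and was not called.

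Gene and copies together reached 92.1 and 88.0 CPM in WT, 167 and 178 at rd10 P15, 229 and 182 at rd10 P18, and 118 and 117 at rd10 P21. The rd10 libraries still did not overlap with WT, but the difference from WT was smaller. With the annotated pseudogenes added to the gene, the log2 fold change was 0.94 at P15 (edgeR adjusted p = 0.0529) and 0.38 at P21 (adjusted p = 0.341), neither called, and 1.20 at P18 (adjusted p = 0.012), still called. How the counting treated reads that match several places is not given in the sources used here.

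**Figure D4:**
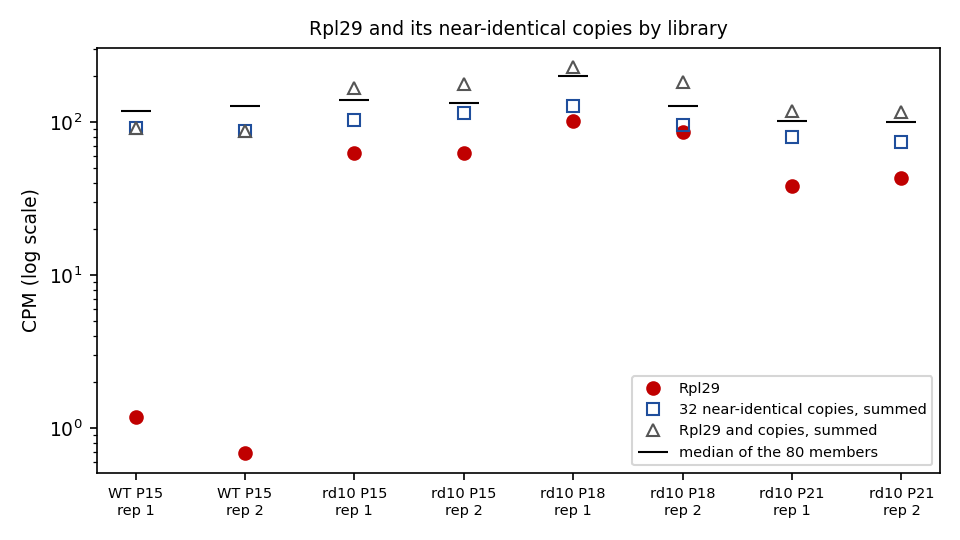
CPM on a log scale of Rpl29 (red), its 32 near-identical copies summed (blue squares), gene and copies summed (grey triangles) and the median of the 80 members (black dash) in each of the 8 libraries. Rpl29 lies at 1.18 and 0.680 CPM in WT and at 38.3 to 101 in rd10, while the copies stay between 73.8 and 128.

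Near-identical copies were the rule in this family. In all, 77 members had 631 such copies, and for 7 members (Rpl7a, Rpl7l1, Rpl17, Rpl21, Rpl29, Rpl35a and Rps12) the copies held more counts than the gene in every library. Several members split their counts between gene and copy differently in libraries of the same group. Rps27 had 147 CPM in rd10 P18 replicate 1 and 26.2 in replicate 2, and its copy Rps27rt, a protein-coding retrogene on chromosome 9 that matches it over 341 bases with no difference, had 1891 counts in replicate 2 and 203 to 746 in the other libraries. Summed with its copies, Rps27 stood at 163 and 86.9 CPM in these 2 libraries.

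Rpl7a gave the widest gap within a group. It had 9.10 CPM in rd10 P15 replicate 1 and 69.7 in replicate 2, and between 51.0 and 100.3 in the other libraries. With its 39 copies summed these 2 libraries held 281 and 272 CPM, and WT held 254 and 233. Rps13 had 39.0 and 72.5 CPM in the WT libraries, and 84.9 and 83.1 with its 5 copies. Rpl37a had 54.4 and 95.4 CPM there, and 94.4 and 107 with its 4 copies. In the pairs of libraries just named, the sums lay closer together than the gene alone, while Rpl41, with 1 copy, kept its spread (SD relative to the family 0.480 alone and 0.459 with the copy). It had 228 and 108 CPM in rd10 P15, 337 and 110 at rd10 P18, and 181 and 87.5 at rd10 P21. Summing each member with its copies left 2 members (Rpl29 and Rpl41) with an SD over 0.3 relative to the family, in place of 7. For Rpl7l1 the SD rose instead, from 0.128 to 0.280. With the sums, the members' median fold changes were 0.15, 0.36, -0.25, 0.24, -0.39 and -0.64 in the 6 comparisons. This sum was chosen after the values were seen.

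**Figure D5:**
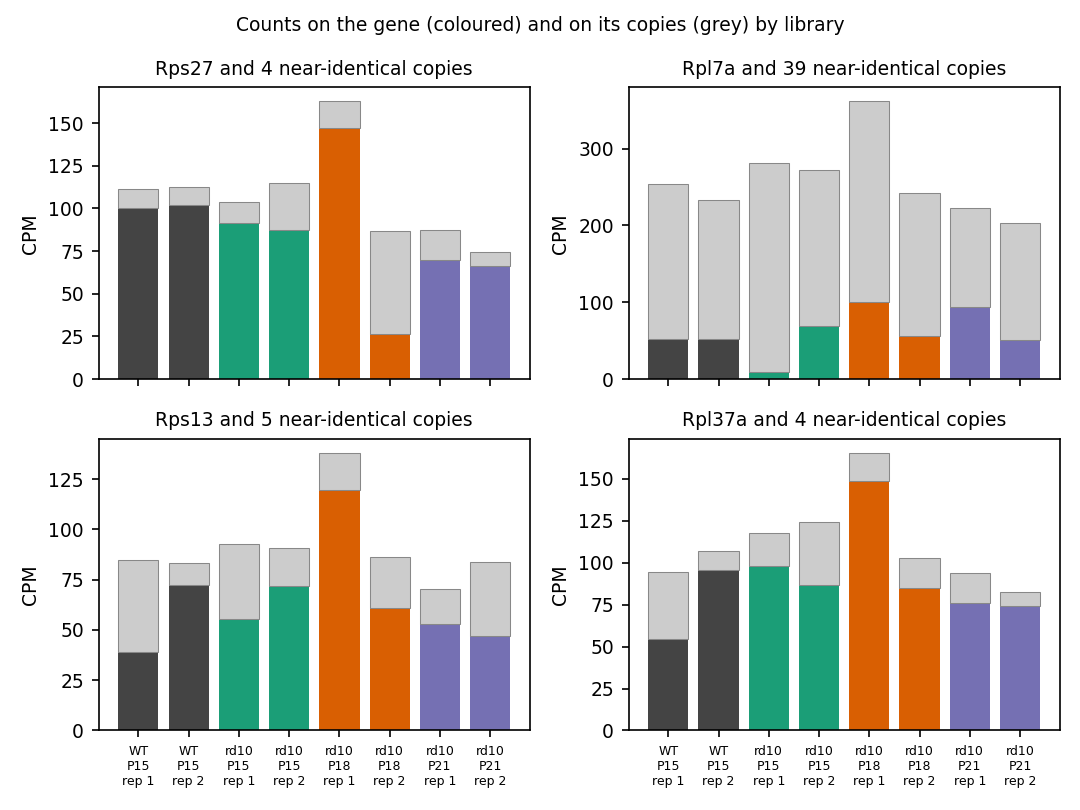
CPM of Rps27, Rpl7a, Rps13 and Rpl37a in each of the 8 libraries, with counts on the gene in colour and on its near-identical copies stacked in grey. Rps27 at rd10 P18 replicate 2 (26.2 CPM on the gene) and Rpl7a in rd10 P15 replicate 1 (9.10 CPM) are low on the gene alone.

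The starts of the transcripts were looked up in RefSeq promoters of the GRCm38.p6 build, where 60 members had 71 entries and 20 members, Rpl29 among them, had none. A TOP start was counted where the base given as the first transcribed was a C followed by at least 4 pyrimidines on the gene's strand, the other strand not being searched. Such a start was found for 13 members (21.7%), against 3.01% of the 27025 genes in the table, and 18.3% of the members' promoter entries held one against 2.51% of all 32851 entries. The windows below hold 15 bases on each side of the start, 5′ to 3′ with the pyrimidine run in capitals, for Rps6, for Rps18 and Rps27, and for Rplp0, which had no such run at its annotated start:
Rps6 (chr4:86857353-86857382, minus strand): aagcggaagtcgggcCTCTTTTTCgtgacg
Rps18 (chr17:33955651-33955680, minus strand): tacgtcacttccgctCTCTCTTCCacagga
Rps27 (chr3:90213634-90213663, minus strand): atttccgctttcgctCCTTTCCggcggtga
Rplp0 (chr5:115559452-115559481, plus strand): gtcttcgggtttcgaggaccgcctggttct

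The 13 members with a TOP start and the 47 without one had similar medians. They were 0.16 and 0.18 at rd10 P15 against WT, 0.32 and 0.38 at rd10 P18 against WT, -0.20 and -0.22 at rd10 P21 against WT, and -0.63 and -0.65 at rd10 P21 against rd10 P18. The annotated start can lie some bases from the one in use, so a missing run says only that the letters are not at that base. The 47 can thus include TOP mRNAs, and this split cannot show whether such mRNAs differ from others.

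Other lists of translation genes were set beside the ribosomal proteins. None of 9 elongation factors, 29 initiation factors, 38 ribosome biogenesis factors, 15 genes of mTORC1 signalling and TOP mRNA control or 79 mitochondrial ribosomal proteins was called by edgeR in any of the 6 comparisons. In rd10 P21 against rd10 P18, where most lists had their highest count, an unadjusted p under 0.05 was reached by 4 elongation factors, 5 initiation factors, 8 biogenesis factors, 0 of the mTORC1 list and 17 mitochondrial ribosomal proteins, beside 10.9% of all genes and 68 of the 80 members. The elongation factors had medians of 0.09, 0.25 and -0.14 against WT at P15, P18 and P21 and of -0.40 from P18 to P21. Initiation factors had 0.09, 0.15, -0.10 and -0.24 in these comparisons, and mitochondrial ribosomal proteins 0.02, 0.17, -0.14 and -0.31. The biogenesis factors, which assemble the ribosome in the nucleolus, had -0.01, 0.00, -0.10 and -0.15, and the mTORC1 list -0.08, -0.02, -0.12 and -0.02. All of these medians lay closer to 0 than those of the members, a difference that was not tested. Single genes reached further than the members other than Rpl29 did, up to 3.10 for Eif4ebp1 in the mTORC1 list (edgeR adjusted p = 0.0518) and 1.52 among the mitochondrial ribosomal proteins in rd10 P18 against WT, where Rps27l stood at 0.91. Among 11 genes of nucleolar stress and p53 response, 1 was called higher in rd10 P18 against WT, where 1.48% of all genes were called. This was Cdkn1a, a cell cycle inhibitor (log2 fold change 1.63, edgeR adjusted p = 0.0277). The median of this list was 0.59 there, and its largest value, 7.64, belonged to a gene that was not called.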

How the data were processed

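Poly(A) RNA of whole retinas was sequenced by the authors, and the deposited table holds raw counts, whole numbers without normalization. Per the labels the reads were aligned with HISAT2, while its version, and which tool, build and gene models were used for counting, is not given in the sources used here. All 8 columns were used.

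GENCODE M21 (GRCm38) gave symbols, coordinates and lengths and names 52081 of 57010 identifiers. Genes were kept by filterByExpr (minimum count 10, minimum total count 15), and scaled by TMM (factors 0.937 to 1.06). The main test was the robust quasi-likelihood fit of edgeR 4.0.16 under R 4.3.3, with limma 3.58.1, on all 8 libraries and without a block. Adjustment followed Benjamini and Hochberg over 20457 genes. This leaves 4 residual degrees of freedom, and the standard error is the log2 fold change divided by the square root of F. Log2 CPM used a prior count of 2. Depth limits low genes only, since members other than Rpl29 held at least 189 counts in every library.

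Near-identical copies were found with BLAST 2.17.0 on the principal transcripts, and substitutions in the Rpl29 coding sequence (its longest open reading frame) by alignment in Biopython 1.88. Promoter windows came from RefSeq. Alternatives were DESeq2 1.42.0, TMM without the members, RLE factors or none, fits to the 4 libraries of a comparison, unfiltered counts, a block for replicate numbers, leaving out single libraries, other denominators or lengths, Rpl29 with its pseudogenes and, added after the values were seen, members with their copies. The fits were tested on simulated data. Figures were drawn with matplotlib 3.10.9.

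The members and gene lists were chosen with earlier results of these data known. Named genes were Rpl29, the called members, the 3 largest rises and falls of each comparison, the highest and lowest levels, paralogue pairs, stalk, X-linked and a few standard members, and the 5 genes most like Rpl29. Some genes that this rule or the lists name are not reported here. Rps27a at P18, Rpl5 and Rps19, Rpl8, Eif4ebp1, and the members named for their copies or for their adjusted p were named after their values were seen.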

Additional observations from a re-analysis of the deposited data

Results flagged for a closer look

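The share of counts on ribosomal protein genes went opposite ways from WT at the later rd10 ages. Both rd10 P18 libraries (1.87% and 1.16%) lay above both WT libraries (1.04% and 1.10%) and both rd10 P21 libraries (1.01% and 0.924%) below them, so that the P18 mean exceeded the P21 mean by 0.552 percentage points. This difference was not tested. An exact permutation test of 2 libraries against 2 has a smallest p of 0.333. The P18 mean rests on replicate 1, the library in which short transcripts of other protein-coding genes were also higher. In TMM-scaled CPM the family median of rd10 P18 replicate 2 was 127.6, between those of the WT libraries (118.9 and 128.1).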

How the results depend on the processing

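Rpl29 remained called against WT under all alternatives that leave its counts as they are. Summed with its pseudogenes it was not called at P15 (0.94) or P21 (0.38), and summed with all copies neither (0.94 and 0.38), which left 0 members called in these comparisons. DESeq2 called 2 members in rd10 P21 against rd10 P18, with Rpl29 at -1.21 (adjusted p = 1.5e-05). With each library left out in turn, Rpl29 lay between -1.32 and -1.08 there, the members called ranged from 0 to 23, from 1 to 4 in rd10 P18 against WT and from 0 to 1 in rd10 P18 against rd10 P15, and the members' medians from -0.95 to -0.29, from 0.038 to 0.65 and from -0.11 to 0.54. The extremes of these medians came from leaving out either rd10 P18 library.

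The share of counts rose to 1.16% in WT and 1.32% in rd10 P15 over nuclear protein-coding genes (1.04% in rd10 P21), and to 1.15% and 1.298% without the 10 most abundant genes. With library sizes alone as the scale, the median of all genes shifted by 0.13 in rd10 P18 and 0.11 in rd10 P21 against WT, where the members' medians became 0.49 and -0.16, and Rpl11 (0.018) and Rps27 (0.059) turned positive in rd10 P18 against rd10 P15. The unit of length moved the level per kilobase of Rps15a to 23.1 and of Rps15 to 378.

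Single members that were not called changed sign. Leaving out libraries, Rpl7a ranged from -2.52 to 0.42 in rd10 P15 against WT, from -0.028 to 0.86 in rd10 P21 against WT and from -0.62 to 0.35 in rd10 P21 against rd10 P18. Rps27 ranged from -1.95 to 0.54 in rd10 P18 against WT, from -1.77 to 0.72 in rd10 P18 against rd10 P15 and from -1.11 to 1.38 in rd10 P21 against rd10 P18. In rd10 P18 against WT, Rpl21 ranged from -0.49 to 0.40 and Rpl22 from -0.13 to 0.19, Rpl11 in rd10 P18 against rd10 P15 from -0.25 to 0.10, and in rd10 P21 against rd10 P15 Rps10 from -0.25 to 0.47 and Rpl10 from -0.34 to 0.025. Summed with copies, Rpl21 (0.081) and Rpl7a (0.18) at P15, Rps27 at P18 (0.16) and Rpl7a at P21 (-0.19) against WT reversed, as did Rps27 in rd10 P18 against rd10 P15 (0.19) and Rps10 (-0.043) and Rpl7a (-0.37) in rd10 P21 against rd10 P15. The cause was not tested.

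Deviations of same-numbered libraries correlated between -0.02 and 0.06 over all genes tested. This shows little shared deviation but cannot show whether the replicate numbers paired the libraries by design. With the replicate block the medians were 0.16, 0.34, -0.27, 0.25, -0.40 and -0.64 and Rpl29 stayed the sole member called, against WT, while the genes called in all numbered 16, 232, 18, 118, 66 and 6 in place of 47, 303, 79, 121, 82 and 4.

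In the order of the report, the genes called in all ranged from 6 to 246, 39 to 1250, 4 to 207, 16 to 977, 10 to 217 and 3 to 961 with each library left out, the highest without an rd10 P18 library, and numbered 431, 957, 573, 606, 529 and 118 by DESeq2, 206, 143, 129, 74, 182 and 2 in fits to the 4 libraries compared, and 144, 383, 160, 173, 125 and 19 without the filter.

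In the edgeR fit to all 8 libraries no member other than Rpl29 was called, which does not show that the members did not differ. DESeq2 also called Rpl30 in rd10 P21 against rd10 P18.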
